A study of Mus musculus with 12 samples.

Results

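The growth hormone receptor and STAT5 axis was followed through 10 genes in the liver of male C57BL/6J mice. They are the receptors Ghr and Prlr, the signal transducer Stat5b, the feedback inhibitors Cish, Socs2 and Socs3, the secreted products Igf1 and Igfals, and the repressors Bcl6 and Cux2. Each gene was read from the array row that carries its symbol alone, and where a gene had several such rows the brightest over all 12 arrays was taken. This gave values for 9 of the 10 genes, out of 19938 genes read in the same way. Prlr was not analysed here. The members were chosen by their part in this pathway with results of the ChREBP against GFP contrast already known, so their differences between the groups are given as a description. No p-value is printed for a member, and a statement that a member passed a threshold describes the values that chose it.

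All 12 mice had received an adenovirus through the tail vein, controls included. In 6 mice the virus carried GFP, a fluorescent protein without a role in liver metabolism, and in the other 6 it carried ChREBP, the glucose-responsive transcription factor encoded by Mlxipl. The labels give an age of 8 weeks and place the study of the fed animals 3 weeks after injection. Whether that age is the one at injection or at study is not settled by the labels. Neither the isoform and species of the ChREBP construct nor the promoter that drove it could be read from the sources used here. Each liver was hybridised to 1 Affymetrix array, and a level below is an RMA value on the log2 scale. A difference is always ChREBP minus GFP, so that a negative value is a lower signal in ChREBP livers. Mlxipl, the check of the virus, was at 9.32 ± 0.23 (SD, n = 6) in GFP livers and at 10.89 ± 0.08 (SD, n = 6) in ChREBP livers.

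Growth hormone from the pituitary binds its receptor on hepatocytes and activates the kinase JAK2, which phosphorylates STAT5. STAT5 then enters the nucleus and switches on Igf1, Igfals and the genes of its own inhibitors, CIS and SOCS2. In rodents the male pituitary releases growth hormone in separated pulses and the female pituitary releases it almost continuously. The liver reads this pattern through STAT5b and through the repressors BCL6, which is more abundant in male liver, and CUX2, which is restricted largely to female liver. Much of the difference between male and female liver transcripts depends on this route.

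STAT5 binds palindromes of the form TTCNNNGAA, and the promoter windows of the members were searched for these letters. A window runs from 250 bases before a RefSeq start to 50 bases after it (assembly GRCm38.p6), and the first transcribed base counts as position 1. The motif reads the same on both strands, so 1 pass covers them, and 8.30% of the 32851 windows in the RefSeq promoter table hold it at least once. Of the members, 9 have 17 windows in that table, and 5 genes have the motif in 7 of the windows. Socs2 is not in that table. The 4 stretches below are shown because they belong to measured members that answer directly to STAT proteins or repress STAT5 targets, and each is written along the strand of the gene with the motif in capitals.
Cish, plus strand of chr9:107296634-107296688: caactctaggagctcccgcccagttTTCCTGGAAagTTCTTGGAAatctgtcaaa
Igfals, plus strand of chr17:24878148-24878206: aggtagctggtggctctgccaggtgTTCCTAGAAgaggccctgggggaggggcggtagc
Socs3, minus strand of chr11:117969487-117969545: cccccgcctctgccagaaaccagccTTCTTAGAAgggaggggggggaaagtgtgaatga
Bcl6, minus strand of chr16:23981338-23981476: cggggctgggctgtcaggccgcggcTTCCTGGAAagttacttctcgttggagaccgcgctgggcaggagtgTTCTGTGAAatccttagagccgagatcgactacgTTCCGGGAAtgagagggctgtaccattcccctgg

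In Cish 2 motifs begin at positions 1 and 12, at the start of the transcript itself. At least 2 motifs in a window were present in 0.457% of all windows. In Igfals the motif shown begins 58 bases before a start that lies inside the annotated gene, and the window of the outermost start holds another at position -236. The Socs3 motif begins at position -154. Bcl6 has 3 motifs in the window of its inner start, at positions -168, -122 and -88, and at least 3 were present in 0.0335% of all windows. The window of its outer start holds 1, at position -118. A window of Prlr holds 1, at position -110. No window of Ghr, Igf1, Stat5b or Cux2 holds these letters, which says nothing of sites elsewhere in those genes. No other motif was searched and binding was not measured, so a match is a description of sequence.

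Across the axis, the receptor and both secreted products were lower in ChREBP livers, Cish and Socs2 were lower with some overlap, and Stat5b, Socs3, Bcl6 and Cux2 lay within intervals that include 0. With limma and Benjamini-Hochberg adjustment over all genes, 5 of the 9 measured members (Ghr, Igf1, Igfals, Cish and Socs2) passed an adjusted p of 0.05, all 5 in the lower direction. Of all genes 13.7% passed in that direction, 13.3% in the other and 27.0% in either. The median difference of the 9 members was -0.37, and that of all genes was -0.04. Because the members were selected on this contrast, nothing is read from their count against these shares. The liver is a mixture of cells, and on arrays of whole tissue fewer cells of a type and less RNA per cell cannot be told apart.

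**Figure D1:**
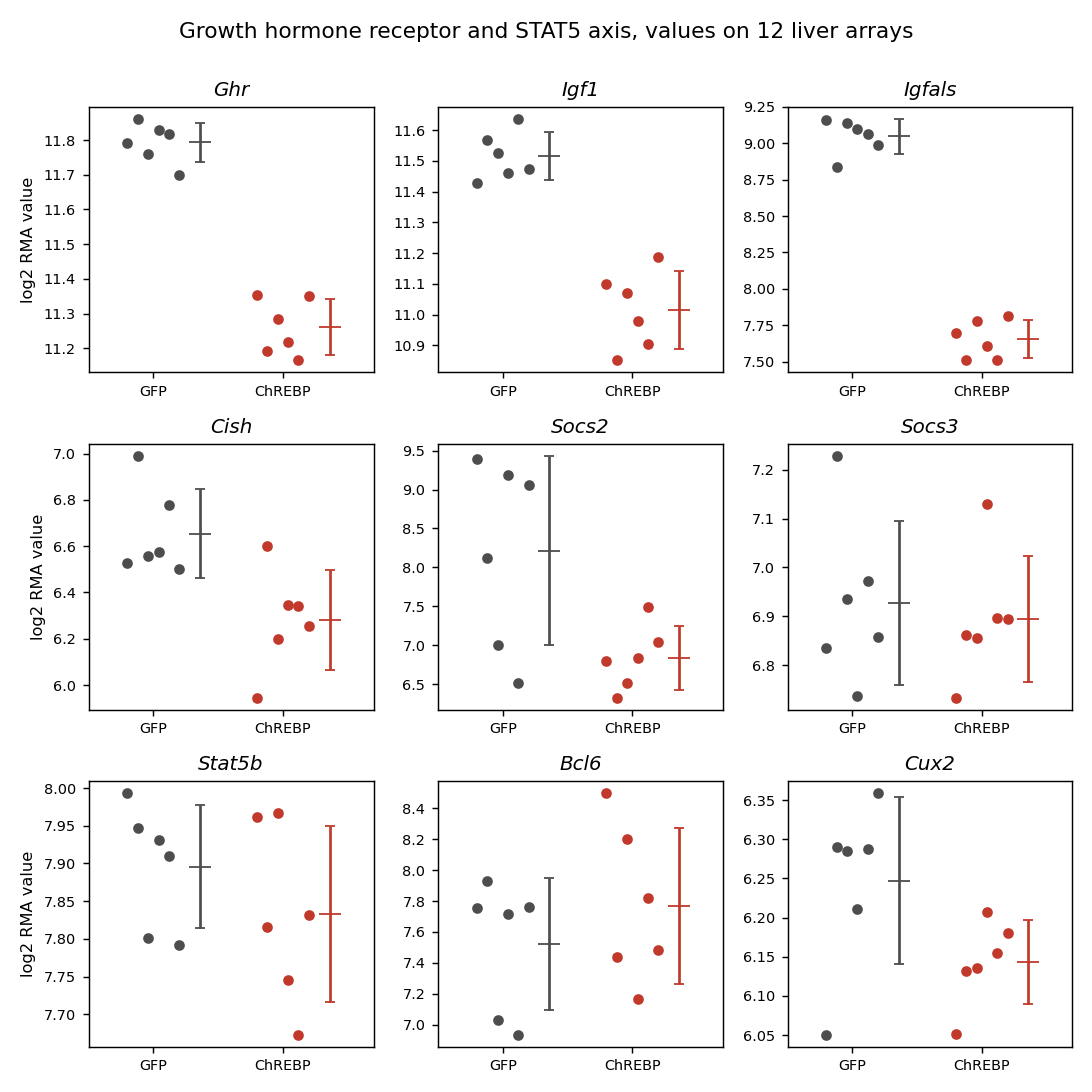
Log2 RMA value (y axis, a separate scale for each gene) of the 9 measured members on 6 GFP (grey) and 6 ChREBP (red) arrays, 1 point per mouse in the order of the replicate number, with mean and SD beside the points. The groups are apart for Ghr, Igf1 and Igfals, and Socs2 spans 2.87 log2 units among the GFP livers.

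Ghr, the receptor that admits the growth hormone signal to hepatocytes, was at 11.79, 11.86, 11.76, 11.83, 11.82 and 11.70 on GFP arrays 1 to 6. On ChREBP arrays 1 to 6 it was at 11.35, 11.19, 11.29, 11.22, 11.17 and 11.35. Every ChREBP liver was below every GFP liver. The difference was -0.53 (SE 0.05, 95% interval -0.63 to -0.43), which is 1.45-fold lower signal, from 11.79 ± 0.06 (SD, n = 6) to 11.26 ± 0.08 (SD, n = 6). The spread of Ghr between mice was small, with a smaller pooled SD in 9.54% of all genes.

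Stat5b, the transducer through which the male pulse pattern is read, was at 7.99, 7.95, 7.80, 7.93, 7.91 and 7.79 on GFP arrays 1 to 6. On ChREBP arrays 1 to 6 it was at 7.96, 7.82, 7.97, 7.75, 7.67 and 7.83. The groups overlapped, and ChREBP 4 and ChREBP 5 alone were below the lowest GFP liver. The difference of -0.06 had an interval from -0.19 to 0.06 (SE 0.06). This is a transcript level, and STAT5 acts only once it is phosphorylated, which arrays do not measure.

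Igf1, the hormone that carries much of the growth effect of growth hormone, was at 11.43, 11.57, 11.53, 11.46, 11.64 and 11.47 on GFP arrays 1 to 6. On ChREBP arrays 1 to 6 it was at 11.10, 10.85, 11.07, 10.98, 10.90 and 11.19. The groups did not overlap, although the ChREBP livers were spread more widely. The difference was -0.50 (SE 0.06, 95% interval -0.63 to -0.37), or 1.41-fold lower signal.

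Igfals encodes the acid-labile subunit, which holds IGF1 and its binding protein in a long-lived complex in plasma. It was at 9.16, 8.84, 9.14, 9.10, 9.06 and 8.99 on GFP arrays 1 to 6, and at 7.70, 7.51, 7.78, 7.61, 7.51 and 7.82 on ChREBP arrays 1 to 6. The lowest GFP value, that of array 2, was still above every ChREBP value. The difference was -1.39 (SE 0.07, 95% interval -1.54 to -1.24), or 2.63-fold lower signal. Ghr, Igf1 and Igfals were the 3 members without overlap between the groups, and 6.83% of all genes were lower without overlap. Igfals and Socs2 were the 2 members at least 1.5-fold lower with an unadjusted p under 0.05, and 1.60% of all genes met that rule in the lower direction.

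**Figure D2:**
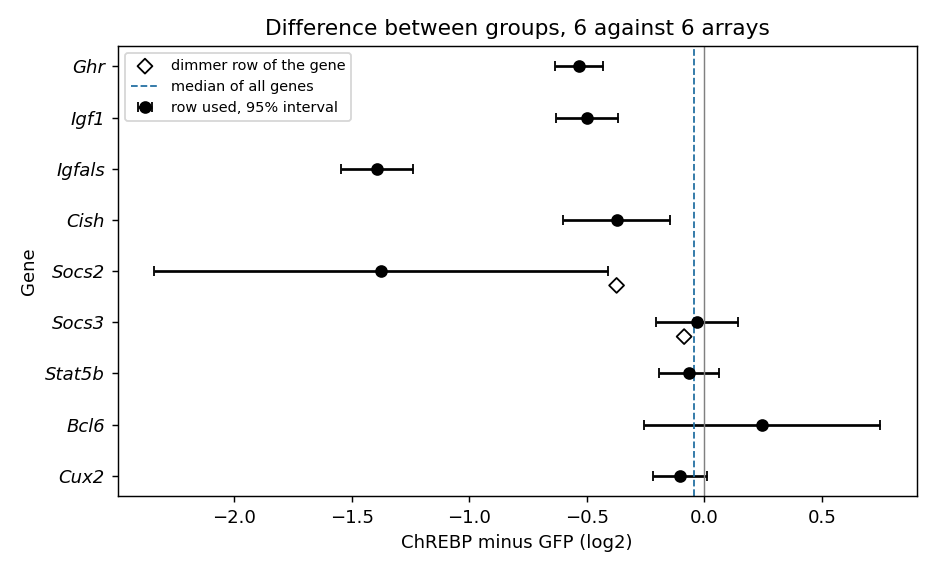
ChREBP minus GFP on the log2 scale (x axis) for each measured member (y axis), with the 95% interval of the limma fit over 6 GFP and 6 ChREBP arrays. Open diamonds are the dimmer rows of Socs2 and Socs3, and the dashed line is the median of all genes at -0.04. The intervals of Ghr, Igf1, Igfals, Cish and Socs2 lie below 0, and that of Socs2 is the widest.

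Among the feedback inhibitors, Cish encodes CIS, which docks on the receptor and competes with STAT5. It was at 6.53, 6.99, 6.56, 6.57, 6.78 and 6.50 on GFP arrays 1 to 6 and at 5.95, 6.60, 6.20, 6.35, 6.34 and 6.26 on ChREBP arrays 1 to 6. ChREBP 2 reached into the GFP range and the other 5 were below the lowest GFP liver. The difference was -0.37 (SE 0.11, 95% interval -0.60 to -0.15). The mean of Cish was near the median of all gene means, above 52.7% of them. No detection calls were used, so whether the signal of Cish stood above background was not tested. The promoter of Cish is the one shown above with motifs at its transcript start.

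Socs2 encodes the inhibitor whose loss in mice causes overgrowth through unrestrained growth hormone signalling. On GFP arrays 1 to 6 it was at 9.39, 8.12, 7.01, 9.19, 6.52 and 9.05, and on ChREBP arrays 1 to 6 at 6.80, 6.33, 6.52, 6.84, 7.49 and 7.04. GFP 1, GFP 4 and GFP 6 were high and close together, GFP 2 was between, and GFP 3 and GFP 5 lay inside the ChREBP range. GFP livers spanned 2.87 log2 units and ChREBP livers 1.16. The SD among GFP livers was 1.21, larger than that of 99.9% of all genes, and among ChREBP livers it was 0.41. The difference of -1.38 therefore had a wide interval, from -2.34 to -0.41 (SE 0.45). A dimmer row of Socs2 differed by -0.37, and the mean of both rows by -0.87. The call for Socs2 was lost when any of GFP 1, 2, 4 and 6 or ChREBP 1, 2, 3, 4 and 6 was left out, with differences from -1.71 to -1.14 over all 12 arrays left out in turn. Without GFP 4, GFP 6 and ChREBP 6 together the difference was -0.96 and the call was also lost.

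Socs3, the inhibitor induced mainly by interleukin 6 through STAT3, was at 6.84, 7.23, 6.93, 6.74, 6.97 and 6.86 on GFP arrays 1 to 6. On ChREBP arrays 1 to 6 it was at 6.73, 6.86, 6.86, 7.13, 6.90 and 6.89. The groups overlapped almost wholly, with GFP 2 and ChREBP 4 the high arrays. The difference of -0.03 had an interval from -0.21 to 0.14 (SE 0.08), and a dimmer row differed by -0.09.

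Bcl6, a repressor that occupies many STAT5 sites in male liver, was at 7.76, 7.93, 7.03, 7.71, 6.93 and 7.76 on GFP arrays 1 to 6. On ChREBP arrays 1 to 6 it was at 8.50, 7.44, 8.20, 7.16, 7.82 and 7.49. ChREBP 1 and ChREBP 3 were above every GFP liver, and the other 4 lay inside the GFP range. The difference of 0.25 had an interval from -0.26 to 0.75 (SE 0.23). With single arrays left out it ran from 0.10 without ChREBP 1 to 0.37 without ChREBP 4. Bcl6 varied between mice of a group more than 98.3% of all genes.

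Cux2, the repressor typical of female liver, was at 6.05, 6.29, 6.29, 6.21, 6.29 and 6.36 on GFP arrays 1 to 6. On ChREBP arrays 1 to 6 it was at 6.05, 6.13, 6.14, 6.21, 6.16 and 6.18. Apart from GFP 1, every GFP liver was above the highest ChREBP liver by a small margin. The difference was -0.10 (SE 0.05, 95% interval -0.22 to 0.01). Cux2 was dim, with a mean below the median of all gene means, and no detection calls were used, so whether its signal stood above background was not tested.

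Of 20 listed signalling partners of both receptors 19 were measured, 4 rose, 3 fell and 12 did not pass. Of all genes 13.3% rose and 13.7% fell, and the median difference of the partners was 0.05 beside -0.04 for all genes. Sirpa, a membrane protein on which growth hormone acts through JAK2 and the phosphatase SHP2, rose by 0.94 (SE 0.06, limma adjusted p = 8.01e-08). The phosphatase gene Ptpn6 rose by 0.22 (adjusted p = 0.0025), Stat5a, the close relative of Stat5b, by 0.22 (adjusted p = 0.0300), and the inhibitor Socs7 by 0.26 (adjusted p = 0.0336). Of the insulin receptor substrates, Irs2 fell by 0.36 (adjusted p = 1.78e-04) and Irs1 fell by 0.23 (adjusted p = 0.0397). Stat3 fell by 0.36 (adjusted p = 6.41e-04). Of the 23 alternatives, Stat5a passed in 12, Socs7 in 9 and Irs1 in 13. Socs7 was lost with median centring, Stat5a with repeated quantile normalization, and Stat5a and Irs1 with the replicate block. Jak2, named after its value was seen, differed by 0.19 (adjusted p = 0.0525) and did not pass. Leaving out single arrays took the number that passed to between 4 and 6, with 4 without GFP 2 and 4 without ChREBP 1.

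In the IGF system, where binding proteins carry IGF1 in plasma and limit its access to the receptor, all 13 listed genes were measured. Of these 2 rose, 3 fell and 8 did not pass, with a median difference of -0.04. The shares of all genes were 13.3% that rose and 13.7% that fell. Igfbp2, at 10.09 ± 0.14 in GFP livers and 9.03 ± 0.37 in ChREBP livers (SD, n = 6), fell by 1.06 (adjusted p = 7.10e-05 in limma). Igfbp1, which responds quickly to fasting and insulin, fell by 1.03 (adjusted p = 8.68e-04) with overlapping groups. Igfbp4 fell by 0.41 (adjusted p = 2.62e-04). Igf2r, which clears IGF2, rose by 0.52 (adjusted p = 1.49e-04), and Igfbp7 rose by 0.34 (adjusted p = 0.0012). Igfbp3, the usual partner of the acid-labile subunit and named after its value was seen, differed by -0.30 (adjusted p = 0.0658).

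**Figure D3:**
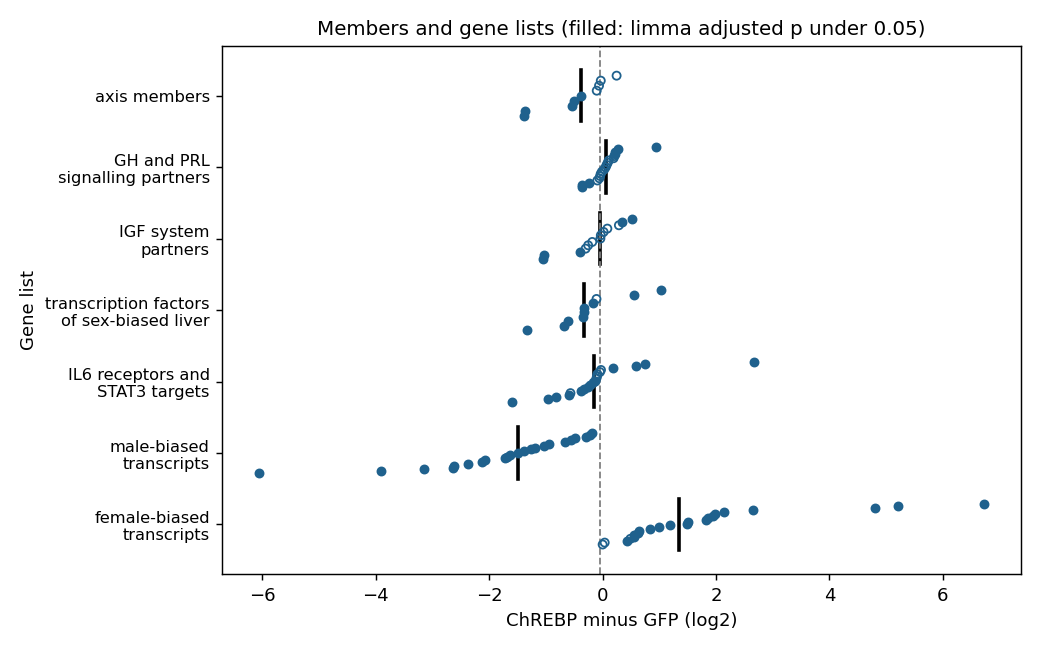
ChREBP minus GFP on the log2 scale (x axis) for each gene of the axis and of 6 related lists (y axis), with 1 point per gene. Filled points passed an adjusted p of 0.05 in limma, black bars are list medians and the dashed line is the median of all genes. Male-biased transcripts lie below 0 with a median of -1.50, and female-biased ones at or above it with a median of 1.34. The signalling and IGF partners lie on both sides.

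Transcripts that depend on sex and growth hormone pattern in liver were counted from lists of the pathway's known outputs. These lists were drawn up with their direction in these data already known and are not independent evidence of it. Of 25 male-biased transcripts 23 were measured, and all 23 fell, each with every ChREBP liver below every GFP liver. Of all genes 13.7% fell, and 6.83% were lower without overlap. Cyp7b1, an oxysterol hydroxylase, fell by 3.14 (adjusted p = 4.22e-09), and Serpina4-ps1 fell by 2.62. Susd4 fell by 2.07 and Ugt2b1 fell by 1.64. Of 28 female-biased transcripts 22 were measured, 19 of these rose and 3 did not pass, and 13.3% of all genes rose. Slc22a27, an organic anion transporter, rose by 5.22 (adjusted p = 1.32e-13), and Cyp2b9 by 6.73, Cyp2b13 by 4.81 and Cyp17a1 by 2.66. Their means in GFP livers were 4.53, 5.15, 4.20 and 5.75, all below the median of all gene means. Cyp3a16, Cyp3a44 and Fmo2 differed by 0.00054, 0.04 and 0.49 and did not pass. Cyp3a16 was at 3.70 in both groups, where the median of all gene means was 6.34. Whether the signal of Cyp3a16, or that of the named rising genes in GFP livers, stood above background was not tested. Cyp2b9 and Cyp2b13 are near-identical relatives whose probes can share signal, so the division between them is uncertain.

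The transcription factors that act beside STAT5b in sex-biased liver mostly fell. Of 12 listed genes 10 were measured, 2 rose, 7 fell and 1 did not pass, with a median difference of -0.33. Of all genes 13.3% rose and 13.7% fell. Onecut1, which is regulated by growth hormone, fell by 1.34 (SE 0.17, adjusted p = 5.39e-05). Foxa1 fell by 0.67 (adjusted p = 4.79e-05), and Nr3c1, the glucocorticoid receptor and a STAT5 partner, fell by 0.35 (adjusted p = 5.28e-04). Trim24 rose by 1.04 (adjusted p = 5.51e-06). Tox, known from female liver, rose by 0.55 (adjusted p = 0.0013) with overlapping groups.

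The interleukin 6 and STAT3 route, which shares Socs3 with the growth hormone route, was read from 20 genes. Of these 4 rose, 9 fell and 7 did not pass, with a median difference of -0.15. Among all genes 13.3% rose and 13.7% fell. The acute phase transcript Lcn2 rose by 2.66 (adjusted p = 9.11e-08), Osmr, the oncostatin M receptor, by 0.75 (adjusted p = 1.61e-04), Saa3 by 0.59 (adjusted p = 2.97e-04) and Steap4 by 0.18 (adjusted p = 0.0373), which passed in 13 of the 23 alternatives. Lifr, the receptor subunit for leukaemia inhibitory factor, fell by 1.60 (adjusted p = 2.57e-08). Apcs fell by 0.97 and Fga fell by 0.60. Saa1 and Saa2, named after their values were seen, went against Saa3. Saa1 fell by 0.83 (adjusted p = 0.0491), and Saa2 differed by -0.57 (adjusted p = 0.222) and did not pass.

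Other cell types were read beside these results from marker lists. Of 7 hepatocyte markers 6 fell, beside 13.7% of all genes, and Alb, at -0.07, did not pass. Their summed level ran from 15.688 to 15.784 in GFP livers and from 15.445 to 15.584 in ChREBP livers, a difference in mean of -0.21. T and B cell markers rose for 3 of 6 genes, beside 13.3% of all genes. Of 9 Kupffer cell and macrophage markers 4 rose, Cd68 (0.74), Adgre1 (0.63), Csf1r (0.50) and C1qa (0.49). Another 4 fell, Timd4 (-1.59), Clec4f (-0.41), Marco (-0.35) and Vsig4 (-0.21), and Lyz2 (0.55) did not pass. The part of these shifts in the results for the axis was not tested. The summed level of 6 pancreatic acinar markers was 14.8 on ChREBP 4, 14.6 on ChREBP 5 and 10.1 on ChREBP 2. It ran from 8.68 to 9.23 on the remaining arrays. ChREBP 2 was kept where ChREBP 4 and ChREBP 5 were left out. Without ChREBP 4 and ChREBP 5, Ghr differed by -0.50, Igf1 by -0.46, Igfals by -1.35, Cish by -0.40, Socs2 by -1.54 and Bcl6 by 0.38, and the same 5 members passed. Without these arrays Stat5b differed by -0.0016 and Socs3 by -0.09. The summed level of 4 adipocyte markers was highest on GFP 4, GFP 6 and ChREBP 6. Adipoq varied most of these markers. The SD among GFP livers was 1.60 for Adipoq, 0.39 for Retn, 0.20 for Lep and 0.12 for Plin1. Without those 3 arrays Ghr differed by -0.56, Igf1 by -0.56, Igfals by -1.43, Cish by -0.43, Socs2 by -0.96 and Bcl6 by 0.41, and Socs2 no longer passed. Cholangiocyte, stellate and sinusoidal endothelial markers passed in 2 of 5, 2 of 7 and 1 of 6 genes, beside 27.0% of all genes.

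The difference between group means does not use how members vary between mice of 1 group. Its SE, and so whether a gene passed, does use the spread of that gene. Deviations from the group mean were correlated for all 36 pairs over 12 arrays, as a description. These arrays share the tissue, the normalization and, within a group, the virus. The size of Pearson's r was at least 0.5 in 8 pairs. Ghr and Igf1 varied together (r = 0.76, Spearman's rho = 0.71), with r at 0.36 among GFP livers and 0.93 among ChREBP livers, and r was 0.75 without ChREBP 5 and GFP 6. Among ChREBP livers Igfals also varied with Igf1 (r = 0.95) and with Ghr (r = 0.88), whereas among GFP livers these values were -0.40 and -0.29. Over 12 arrays r was 0.46 for Igfals and Igf1, and 0.12 without ChREBP 6 and ChREBP 2. The summed hepatocyte markers varied with Ghr (r = 0.90), Igf1 (r = 0.92) and Igfals (r = 0.86) among the same 6 ChREBP livers. Among GFP livers these values were 0.63, 0.44 and -0.76. The part of the hepatocyte signal in these relations was not tested.

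Ghr and Stat5b had r = 0.75, and r = 0.58 without ChREBP 5 and GFP 6. Stat5b ran against the summed acinar markers (r = -0.74), and still at -0.57 without ChREBP 4 and ChREBP 5 but with ChREBP 2 kept. Cish and Socs3 varied together (r = 0.68, rho = 0.71), whereas Cish and Igfals ran opposite (r = -0.68, rho = -0.53), a relation that rested on GFP 2 and ChREBP 2, without which r was -0.30. Socs2 and Bcl6 had r = 0.52 over 12 arrays, 0.86 among GFP livers and -0.02 among ChREBP livers. By rank these values were 0.30, 0.49 and -0.03, and r was 0.35 without GFP 5 and GFP 1, so that part of the relation rested on those arrays. In GFP livers both genes were lowest in the mice of arrays 3 and 5. Socs2 and Igf1 ran opposite among GFP livers (r = -0.88), and their r was 0.10 among ChREBP livers.

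**Figure D4:**
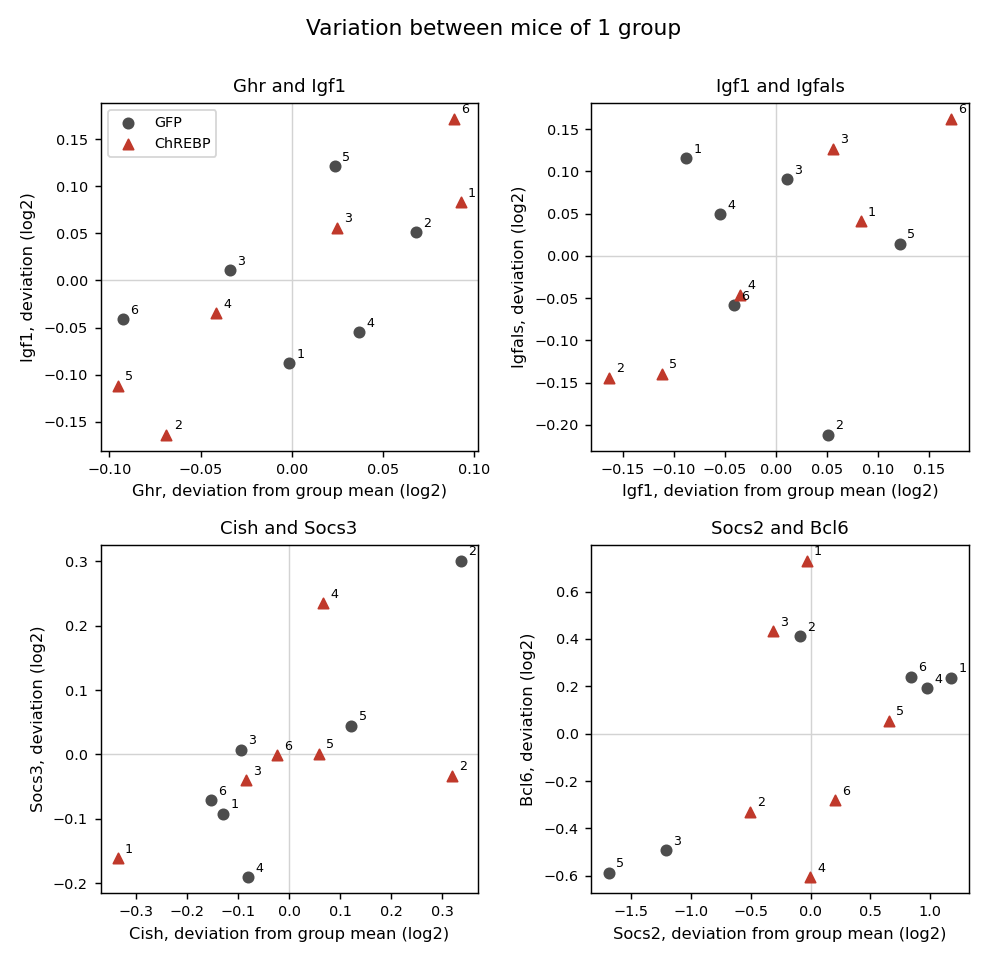
Deviation of each array from the mean of its group on the log2 scale, for 4 pairs of members (x and y axes named in each panel), with GFP arrays as grey circles and ChREBP arrays as red triangles, each marked with its replicate number. Ghr and Igf1 lie along a rising line that is tight among ChREBP arrays (r = 0.93) and loose among GFP arrays (r = 0.36). Igf1 and Igfals rise together among ChREBP arrays alone. The low Socs2 and Bcl6 values of GFP 3 and GFP 5 stand together.

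The genes most like 4 of the members in this within-group variation were taken from 1121 genes. These had a mean at or above the median of all genes and a pooled SD of at least 0.2, and predicted and unnamed genes were left out. Igf1 itself had a pooled SD of 0.10, so genes with as small a spread were not searched. The r over all arrays of each gene named was among the largest of that search, and such selection raises it. Whether unrelated genes would reach these values in the same search was not tested. For Igf1 the most alike genes were F11, a coagulation factor made by hepatocytes (r = 0.95), Fam214a (r = 0.91) and Cyp2d13 (r = 0.90). Without ChREBP 6 and ChREBP 2 these were 0.93, 0.96 and 0.95. For Socs2 they were Slc25a30, a mitochondrial carrier (r = 0.91), E2f8 (r = 0.87) and Ms4a6b (r = 0.86). The likeness to Socs2 was that of the GFP livers, where r was 0.97, 0.95 and 0.95, and among ChREBP livers it was 0.15, -0.31 and 0.48. For Bcl6 they were Dcdc2a (r = 0.87), Chordc1 (r = 0.77) and Snapc3 (r = 0.76). For Cish they were Rbmx2, Il22ra1, a subunit of the interleukin 22 receptor, and Id3, each at r = 0.78. Without GFP 2 and ChREBP 2 the values for Cish were 0.38, 0.54 and 0.79, so that the first of them rested largely on those arrays.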

How the data were processed

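Liver RNA of 12 male mice, 6 per adenovirus, had been read on 1 array each. The log2 values deposited by the authors are RMA signals, made with RMA and Partek per the submitters' notes, which give no versions. RMA removes background, gives all arrays the same distribution and combines the probes of a transcript. Of 35556 rows, 21789 carry a single gene symbol, 1621 carry several and 12146 are not listed in the annotation used. Symbols were updated through the Entrez ID for 21698 rows against RefSeq (GRCm38.p6), which left 19938 genes.

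A linear model without covariates was fitted to every gene in limma 3.58.1 (R 4.3.3), with eBayes moderation. Its two-sided p-values were adjusted over all 19938 genes by the Benjamini-Hochberg procedure, with 0.05 as the limit for passing. The array methods of the study describe another virus and guided only the choice of test. The members and gene lists were chosen with earlier results of these data known. Named genes are the members, up to 4 genes per list with the smallest p, those that complete a count of 5 or fewer, Mlxipl, and the 3 genes most like Cish, Socs2, Igf1 and Bcl6. The labels call the samples biological replicates. Replicate numbers are shared by both groups, but same-numbered arrays correlated at -0.06 to 0.25 in their deviations, so they were not used as pairs.

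On simulated data for ChREBP against GFP, 200 of 19938 genes were changed. The fit recovered 88% of genes changed 1.5-fold and 98% of those changed 2-fold, and 3.13% of its calls were false. The simulated noise was independent between genes, and far fewer genes changed than the 27.0% that passed on the real arrays. These rates therefore need not hold for the real arrays. Alternatives were other scalings, filters, rows and moderation, the methods' analysis of variance, a replicate block and arrays left out. The number of arrays limits the precision, and detection calls were not used. No scan dates are given in the sources used here, so no array batch was tested.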

Additional observations from a re-analysis of the deposited data

Results flagged for a closer look

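The values of the 9 measured members and of 32 named list genes were examined for 1 array far from the other 5 of its group. This marked 5 of 82 groups of 6 values, none of them of a member, and chance alone marks about 1 group in 20. Sirpa was at 8.29 on GFP 4, below 8.43 to 8.49 on the other GFP arrays. Trim24 was at 7.76 on GFP 5, above 7.32 to 7.38 on the others. Tox was at 8.29 on GFP 3, above 7.56 to 7.76. Cyp7b1 was at 10.98 on GFP 3, below 11.35 to 11.53. Fga was at 11.84 on GFP 2, above 11.56 to 11.66.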

How the results depend on the processing

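Ghr, Igf1, Igfals and Cish kept their direction and passed in all 23 alternatives, whereas Socs2 passed in 11 and Cux2, which did not pass in the reported fit, in 3. Socs3, Stat5b and Bcl6 passed in none. Socs2 was lost under robust moderation, under the methods' analysis of variance, without 9 of the 12 arrays in turn, and without GFP 4, GFP 6 and ChREBP 6 together. Cux2 passed under repeated quantile normalization, without GFP 1 and under centring on the rows with 1 symbol. Among the members and the 32 list genes named by rule, no difference that passed changed sign. Under the fold rule (1.5-fold or more, unadjusted p under 0.05), 2 members, 1 signalling partner, 2 IGF partners, 4 transcription factors, 7 interleukin 6 and STAT3 genes and 1137 of all genes passed. With each array left out in turn, 4 to 5 members, 4 to 6 signalling partners, 5 to 6 IGF partners, 9 transcription factors, 23 male-biased and 19 female-biased transcripts, 11 to 14 interleukin 6 and STAT3 genes and 4656 to 5632 of all genes passed. Of the 23 alternatives, Stat5a passed in 12, Socs7 in 9, Irs1 in 13 and Steap4 in 13. The reported fit had 2645 genes higher and 2730 lower. Centring each array on the median of all rows gave 2364 and 3196, and centring on the rows with 1 symbol, chosen after seeing the data, gave 2190 and 5606. The likeness of Ghr and Stat5b was 0.58 without ChREBP 5 and GFP 6, and that of Igfals and Cish was -0.53 by rank and -0.30 without GFP 2 and ChREBP 2. The cause of these changes was not tested.

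With the replicate number as a block (replicate block), 5 members and 4439 of all genes passed. Same-numbered arrays were not shown to be pairs, and 1 of 6 numbers matched best with itself.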
